A study of Homo sapiens with 2 samples.

Results

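The genes described here encode proteins of the excision, mismatch and end-joining pathways of DNA repair. They are 38 genes picked by symbol out of 46425 gene symbols in the deposited table. Of these, 5 act in mismatch repair, 10 in nucleotide excision and 9 in non-homologous end joining. The other 14, called base excision genes here, act in base excision and the repair of single-strand breaks, except MGMT. The product of MGMT reverses damage directly, and the gene was counted with them. All 38 had at least 20 reads summed over the libraries, the level from which a gene was tested, as did 13665 genes of the table.

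RNA was sequenced from NK92, an established human natural killer cell line, with and without PPMX-T003, an antibody against transferrin receptor 1, the receptor through which cells take up iron bound to transferrin. Both groups came from a single culture that had grown for 18 h when it was divided. The PPMX-T003 group was exposed to the antibody at 10 µg/mL over the next 6 h, and the control grew without it. Poly(A)-selected, stranded libraries were made, 1 per condition, so that no difference given here has a replicate check and no test between conditions was possible. The columns of the table are named for 0 h and 6 h, while the methods give both groups the same additional time, and the column named 0 h was read as the control. A difference in harvest time, if there was any, cannot be told apart from the exposure. The control library held 46766416 reads and the PPMX-T003 library 43178462.

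Base excision repair removes damaged or wrong bases with glycosylases, after which an endonuclease opens the strand at the empty site and a polymerase and a ligase close the gap. Nucleotide excision repair cuts out a stretch of strand around bulky lesions such as ultraviolet photoproducts, and mismatch repair removes the newly made strand around replication errors. Non-homologous end joining rejoins broken chromosome ends without a template, and in lymphocytes it is also the pathway that completes the rearrangement of antigen receptor genes.

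The libraries carried the transcripts of a natural killer cell line. Of 15 natural killer cell markers, 14 had at least 20 reads in the control, led by NKG7 at 3215 TPM (a level per transcript length, held in the table as whole numbers), and their summed level was 8424 TPM in the control and 9016 TPM with PPMX-T003. FCGR3A, the Fc receptor CD16, had 16 and 15 reads. Of 6 T cell markers, CD3D, CD3G, CD8A and CD8B had 0 reads in both libraries and CD4 had 4 and 0, while TRAC had 1501 and 1312. The markers of B cells reached 14 and 12 reads in sum over 3 genes, all from CD79A, and those of myeloid cells 237 and 196 reads over 4 genes, most of them from ITGAM. The 3 erythroid and 2 fibroblast markers had 0 reads in both libraries, and the 2 epithelial markers 2 and 0.

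The levels of the 38 genes per transcript length covered a wide range. XRCC6 and XRCC5, which encode the subunits of the Ku heterodimer that binds broken DNA ends, were the most abundant, with 684 and 669 TPM for XRCC6 and 628 and 574 TPM for XRCC5 in the control and with PPMX-T003. DDB1, an adaptor of a ubiquitin ligase and a subunit of the ultraviolet damage sensor, followed with 292 and 287 TPM. At the other end, the glycosylase gene NEIL1 had 1 TPM in both libraries, from 35 and 31 reads, and MGMT, whose product takes alkyl groups directly off guanine, had 1 and 2 TPM from 109 and 130 reads. ERCC6, which starts repair where a transcribing polymerase is stalled, had 3 TPM in both libraries from 1112 and 945 reads. The rounded levels of the libraries differed most for the thinly read MGMT and for ERCC8, described with its pathway, followed by RIF1, at 56 and 41 TPM, and ERCC4, at 4 and 3 TPM, where rounding weighs heavily. Together the 38 genes took 0.561% of the reads in the control and 0.532% with PPMX-T003, 262187 and 229681 reads.

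**Figure D1:**
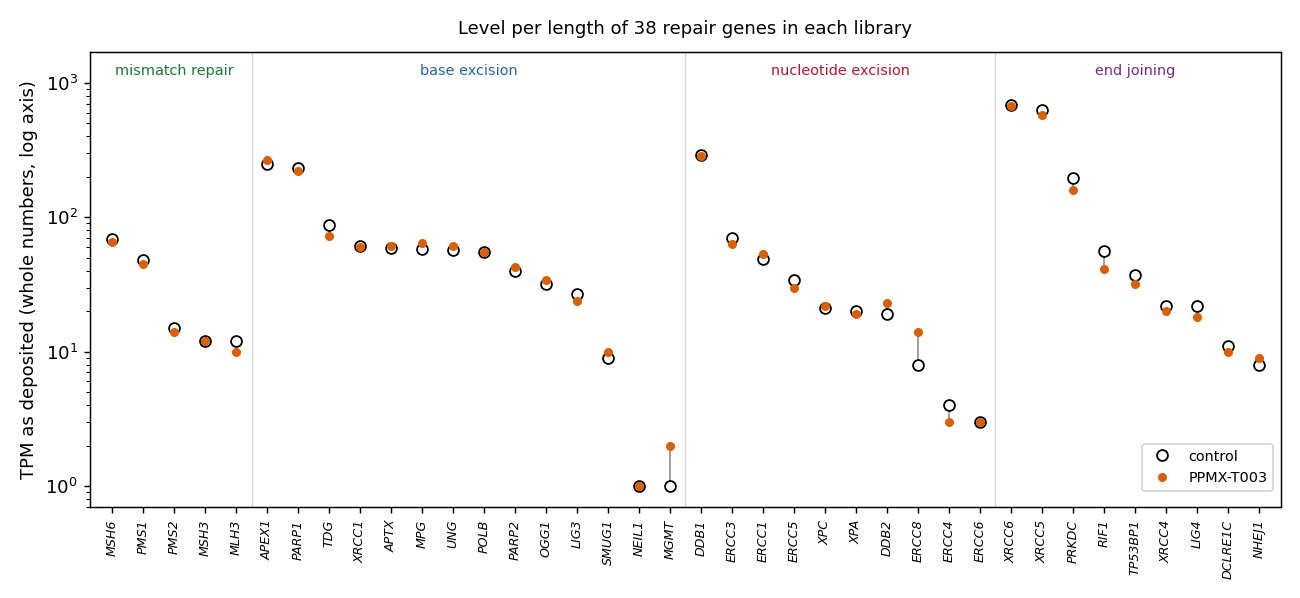
Level of each of the 38 repair genes, in TPM as deposited (whole numbers, log axis), in the control library (open circles) and the PPMX-T003 library (filled circles), ordered within each pathway by the control level. XRCC6 and XRCC5 lie highest and NEIL1 and MGMT lowest, and the widest gaps between points are those of MGMT, at 1 and 2 TPM, and ERCC8, at 8 and 14 TPM.

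Differences between the libraries were small in size and went both ways. Each is given as the log2 ratio of scaled reads (CPM, reads of a gene relative to a library total set by TMM scaling), PPMX-T003 over control, with a 95% Clopper-Pearson interval on the division of the gene's reads between the libraries. They hold counting error and no other error, and so speak of this pair of libraries and not of the conditions. The interval lay above 0 for 11 of the 38 genes (28.9%), against 21.8% of all tested genes, and below 0 for 11 (28.9%), against 23.9% of all tested genes. The division depends on the scaling. With median-of-ratios scaling 10 genes were higher and 14 lower, DDB1 being lost from the higher genes and PARP1, ERCC6 and DCLRE1C added to the lower ones, against 20.2% and 25.8% of all tested genes. With upper quartile scaling 14 were higher and 11 lower, SMUG1, MGMT and XRCC6 being added, against 23.9% and 21.9%, so the shares over the table moved the same way. A limit of 0.32 on the log2 scale, which is a level 25% higher or 20% lower, was passed upwards by 2 genes, MGMT and DDB2 (5.26%, against 9.37% of tested genes), and downwards by 0 genes, against 9.48% of tested genes. DDB2 passed it by little and not with median-of-ratios scaling, and the interval of MGMT holds 0.

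These shares depend on how well a gene was counted, and the repair genes were counted well. Among genes with at least 1000 reads, a limit chosen after the values were seen, 11 of 34 repair genes were higher beyond counting error, against 27.8% of 8359 genes, and 10 were lower, against 32.1%. On the same genes 1 repair gene, DDB2, passed the limit of 0.32 upwards, against 1.15% of genes, and 0 passed it downwards, against 2.73%. The counts of repair genes thus lay near the background in either direction. The median log2 ratio of the 38 genes was -0.04, beside -0.00 for all tested genes, and the middle 50% of them ran from -0.10 to 0.14, beside -0.14 to 0.13. At least 20% of the exon bases of 8 genes (MPG, OGG1, NEIL1, LIG3, XPC, ERCC1, ERCC4 and TP53BP1) lie opposite a gene on the other strand, and reads from either strand could not be told apart, since the use of strand in counting is not given in the sources used here. In bulk RNA, less RNA per cell and fewer cells that express a gene cannot be told apart.

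**Figure D2:**
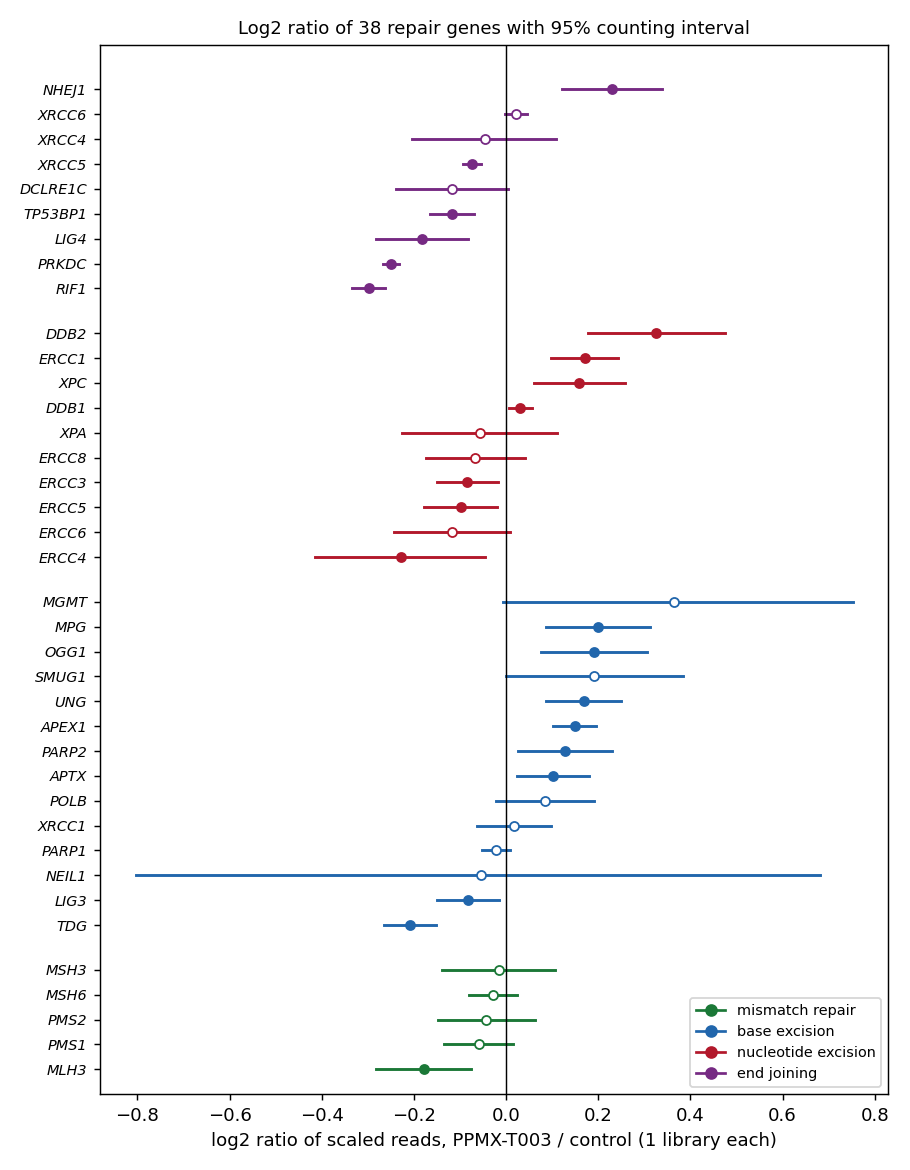
Log2 ratio of scaled reads, PPMX-T003 over control, for the 38 repair genes by pathway, with 1 library per condition. Bars are 95% counting intervals and filled points are the 22 genes whose interval does not hold 0, of which 11 lie above and 11 below.

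By pathway, the median log2 ratio was 0.12 over the 14 base excision genes, -0.04 over the 5 mismatch repair genes, -0.06 over the 10 nucleotide excision genes and -0.12 over the 9 end joining genes. Summed reads, in which the most read genes weigh most, gave another picture. Their log2 ratio was 0.02 for base excision (interval 0.004 to 0.040) and 0.02 for nucleotide excision (interval 0.002 to 0.042), the latter opposite in sign to its median. It was -0.05 for mismatch repair and -0.13 for end joining. Of the base excision genes 6 were higher beyond counting error and 2 lower, and of the end joining genes 1 was higher and 5 were lower. For nucleotide excision 4 were higher and 3 lower, and for mismatch repair 0 and 1, beside the 21.8% of all tested genes that were higher and the 23.9% that were lower. Among genes with at least 1000 reads, nearer the repair genes in depth, these shares were 27.8% and 32.1%. After a fit on transcript GC content and length, described after the pathways, the higher and lower genes numbered 4 and 1 for base excision, 1 and 3 for end joining, 3 and 1 for nucleotide excision and 0 and 0 for mismatch repair. Among all 11962 fitted genes, 2238 were then higher and 2398 lower, and among the 8219 of them with at least 1000 reads 1827 and 1950. The pathway medians were not tested against each other, and they, like many single ratios and calls, move with the base composition and length of the transcripts, as described after the pathways.

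All but 1 of the mismatch repair genes had intervals that hold 0, while the summed reads of the 5 genes gave a log2 ratio of -0.05 (interval -0.09 to -0.02). That sum is as counted. After the GC and length fit, described after the pathways, 0 of the 5 genes were beyond counting error, and their median was 0.04. MSH6 and MSH3, which encode the alternative partners of the MutS dimers that recognise mismatches, had log2 ratios of -0.03 (interval -0.08 to 0.02) and -0.02 (-0.14 to 0.11), from 6111 and 5525 reads and from 1136 and 1036 reads in the control and with PPMX-T003. At this depth no difference was detectable for either gene. Among the MutL genes, PMS1 (-0.06, interval -0.13 to 0.02) and PMS2 (-0.04, interval -0.15 to 0.06) also had intervals that hold 0. PMS2 has 12 pseudogenes in the table, copies of its sequence, with 3206 and 3073 reads in sum, more than the 1554 and 1391 reads given to PMS2 itself, so the division of reads among them is uncertain. With the pseudogenes added, an alternative chosen after the values were seen, the log2 ratio was 0.02 (interval -0.03 to 0.08).

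MLH3, a MutL gene whose endonuclease also acts in meiotic crossing over, was the mismatch repair gene that lay beyond counting error. It had 1740 reads in the control and 1417 with PPMX-T003, which are 37.2 and 32.8 CPM and a log2 ratio of -0.18 (interval -0.28 to -0.08). After the GC and length fit MLH3 lay at -0.05 (interval -0.15 to 0.06) and was no longer beyond it.

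In base excision repair, the genes of the glycosylases, which cut out the damaged base, lay on either side of 0. UNG, which removes uracil, had 2424 reads in the control and 2512 with PPMX-T003, or 51.8 and 58.2 CPM, a log2 ratio of 0.17 (interval 0.09 to 0.25). MPG, which removes alkylated purines, had 1263 and 1337 reads, or 27.0 and 31.0 CPM, a log2 ratio of 0.20 (interval 0.09 to 0.31). OGG1, which removes oxidised guanine, had a log2 ratio of 0.19 (interval 0.07 to 0.31). After the GC and length fit UNG was still higher beyond counting error, at 0.15 (interval 0.06 to 0.23), while OGG1 (0.11, interval -0.01 to 0.22) and MPG (0.04, interval -0.07 to 0.15) were not. SMUG1, another uracil glycosylase, had a like ratio of 0.19 from 438 and 461 reads, but its interval reached 0 (-0.00 to 0.38).

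TDG, the glycosylase that acts on thymine opposite guanine and on the oxidised forms of methylcytosine, went the other way. It had 5691 reads in the control and 4540 with PPMX-T003, or 122 and 105 CPM, a log2 ratio of -0.21 (interval -0.27 to -0.15). After the GC and length fit TDG lay at -0.11 (interval -0.17 to -0.05). TDG was the most abundant of the 6 glycosylase genes per transcript length, at 88 and 72 TPM, and also had the most reads of them. The summed reads of the 6 genes gave a log2 ratio of -0.01 (interval -0.05 to 0.03). NEIL1 was too thinly read for a difference to be seen, with a log2 ratio of -0.05 and an interval from -0.80 to 0.68. The same holds for MGMT, whose log2 ratio of 0.37 had an interval from -0.01 to 0.75.

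Downstream of the glycosylases, APEX1 encodes the main endonuclease that cuts the strand at the empty site. It had 7456 reads in the control and 7622 with PPMX-T003, or 159 and 177 CPM, a log2 ratio of 0.15 (interval 0.10 to 0.20). APEX1 was thus higher with PPMX-T003 by a ratio well above its counting error. The window around its start, 250 bases before to 50 after on the plus strand (chr14:20454976-20455275, RefSeq, GRCh38.p14), is shown because a gene on the opposite strand that starts 86 bases away, OSGEP, was higher as well. Capitals mark matches, on either strand, to 7 motifs searched for in all promoter windows of this length, namely the ETS motif CCGGAAG, the NRF1 motif GCGCATGC, the E2F motif TTTGGCGC or TTTCGCGC, the CCAAT box CCAAT, the GC box GGGCGG, the E-box CACGTG and the TATA box TATAAA.
APEX1: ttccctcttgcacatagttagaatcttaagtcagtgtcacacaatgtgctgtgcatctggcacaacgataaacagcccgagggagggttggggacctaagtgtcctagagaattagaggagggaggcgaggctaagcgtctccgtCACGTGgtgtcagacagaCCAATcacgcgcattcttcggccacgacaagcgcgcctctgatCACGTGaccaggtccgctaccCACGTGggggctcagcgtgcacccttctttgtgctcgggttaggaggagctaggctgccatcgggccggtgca
The window holds 3 copies of the E-box, a motif present in 7.26% of 35116 promoter windows, and 1 CCAAT box, present in 34.6%. A match is a description of the letters and not a sign of binding.

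The genes that sense strand breaks and close the gap lay on either side of 0. PARP1, which binds nicked DNA and builds chains of ADP-ribose, had 19131 and 17371 reads and a log2 ratio of -0.02 (interval -0.05 to 0.01), a narrow interval that holds 0. Its relative PARP2 had 1581 and 1593 reads and a log2 ratio of 0.13 (interval 0.03 to 0.23). APTX, which clears failed ligations, lay at 0.10 (interval 0.02 to 0.18). LIG3, the ligase of this pathway, lay below the control at -0.08 (interval -0.15 to -0.01) and at -0.04 (interval -0.11 to 0.03) after the GC and length fit, while its scaffold XRCC1 (0.02, interval -0.06 to 0.10) and the gap-filling polymerase gene POLB (0.09, interval -0.02 to 0.19) did not differ detectably. No role in base excision had all of its genes on 1 side beyond counting error except that of APEX1, which it fills alone.

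In nucleotide excision repair the genes of damage recognition had log2 ratios above 0, by little for DDB1. DDB2, which encodes the subunit of the ultraviolet damage sensor that contacts the lesion and is a known target gene of p53, had 699 reads in the control and 808 with PPMX-T003, or 14.9 and 18.7 CPM, a log2 ratio of 0.33 (interval 0.18 to 0.47) and a level 25.3% higher. Of the 38 genes it lay furthest above 0 by the interval bound nearest to 0. XPC, which recognises lesions across the genome, had 1638 and 1686 reads and a log2 ratio of 0.16 (interval 0.06 to 0.26). DDB1, with 25808 and 24310 reads, lay only just above 0 at 0.03 (interval 0.01 to 0.06). With median-of-ratios scaling or a 99% interval it was not beyond counting error. Its rounded TPM went from 292 to 287, which is a gap of -0.06 to the log2 ratio of its reads, but the TPM of the whole table was shifted alike, with a median gap of -0.05 over 9381 genes with at least 5 TPM in both libraries.

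DDB2 has 2 annotated starts in RefSeq (GRCh38.p14) on the plus strand of chromosome 11, and both windows are shown because it differed most among the genes that were higher, with capitals for the same 7 motifs. The windows lie at chr11:47214204-47214503 and chr11:47214724-47215023, in that order.
DDB2: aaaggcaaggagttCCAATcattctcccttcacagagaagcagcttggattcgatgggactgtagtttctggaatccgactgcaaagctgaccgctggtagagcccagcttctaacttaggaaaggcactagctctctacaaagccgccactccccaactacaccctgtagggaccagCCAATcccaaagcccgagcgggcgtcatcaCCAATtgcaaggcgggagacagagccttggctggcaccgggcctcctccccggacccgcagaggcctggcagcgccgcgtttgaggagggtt
DDB2: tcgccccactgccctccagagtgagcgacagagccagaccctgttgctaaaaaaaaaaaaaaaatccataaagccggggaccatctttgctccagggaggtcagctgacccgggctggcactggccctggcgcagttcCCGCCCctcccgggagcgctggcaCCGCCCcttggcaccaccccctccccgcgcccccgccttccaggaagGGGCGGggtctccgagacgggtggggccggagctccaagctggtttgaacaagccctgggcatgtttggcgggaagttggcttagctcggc
The upstream window holds 3 CCAAT boxes and no GC box, and the downstream window holds 3 GC boxes, a motif present in 45.0% of promoter windows, and no CCAAT box. The reads are given per gene, so those from either start were not told apart.

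The genes that recognise lesions through a stalled polymerase lay slightly below 0, ERCC6 at -0.12 (interval -0.24 to 0.01) and ERCC8 at -0.07 (interval -0.17 to 0.04), and neither was beyond counting error. For ERCC8 the deposited measures disagree in direction. Its reads were 1519 in the control and 1337 with PPMX-T003, whereas its rounded TPM was 8 and 14 and its rounded FPKM, another level per length, 3 and 6. Rounding leaves a TPM log2 ratio between 0.67 and 0.95, which is at least 0.73 above that of the reads, and ERCC8 was the only one of the 38 genes with a gap of 0.32 or more beyond rounding. Such gaps were found in 39 of the 9381 genes (0.416%), and their source was not tested. Part of the ERCC8 exons, 28.3% of their bases, is shared on the same strand with the pseudogene GNL3LP1, which had 57 and 48 reads.

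Of the genes that open the helix and verify the damage, ERCC3, a helicase of the transcription factor TFIIH, was lower (-0.08, interval -0.15 to -0.02), and XPA (-0.06, interval -0.23 to 0.11) was not beyond counting error. The genes of the nuclease that cuts on 1 side of the lesion had ratios of opposite sign. ERCC1 had 2992 reads in the control and 3105 with PPMX-T003, or 63.9 and 72.0 CPM, a log2 ratio of 0.17 (interval 0.10 to 0.24). Its catalytic partner ERCC4 had 553 and 435 reads and a log2 ratio of -0.23 (interval -0.41 to -0.05). After the GC and length fit neither was beyond counting error, ERCC1 at 0.06 (interval -0.01 to 0.13) and ERCC4 at -0.09 (interval -0.28 to 0.09), and the call for ERCC4 was also lost with a 99% interval.

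ERCC5, the nuclease for the other side of the lesion, was lower at -0.10 (interval -0.18 to -0.02), from 2724 and 2345 reads, a call lost after the GC and length fit. It shares 63.2% of its exon bases with BIVM-ERCC5, a readthrough gene that had 48 reads in the PPMX-T003 library and 0 in the control. Adding these reads to those of ERCC5, an alternative chosen after the values were seen, gave a log2 ratio of -0.07 (interval -0.15 to 0.01), which holds 0. With the reads of BIVM as well, whose exons hold 19.1% of the ERCC5 exon bases, it was -0.08 (interval -0.16 to -0.00), which only just excludes 0. How reads were divided between these genes is uncertain, and so is the call for ERCC5.

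End joining was the pathway with the lowest values. RIF1, which acts with TP53BP1 to keep broken ends from being resected, had 14704 reads in the control and 11027 with PPMX-T003, or 314 and 256 CPM, a log2 ratio of -0.30 (interval -0.33 to -0.26) and a 0.813-fold level. RIF1 lay furthest below 0 of the 38 genes by the interval bound nearest to 0. TP53BP1 itself had 7851 and 6674 reads, or 168 and 155 CPM, a log2 ratio of -0.12 (interval -0.16 to -0.07). Both genes that set the choice of pathway were thus lower with PPMX-T003, RIF1 by the wider margin. After the GC and length fit both ratios were nearer 0, RIF1 at -0.13 (interval -0.17 to -0.10) and TP53BP1 at -0.05 (interval -0.10 to -0.00).

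The RIF1 window on the plus strand (chr2:151409652-151409951, RefSeq, GRCh38.p14) is shown as that of the gene with the lowest ratio, with the motifs in capitals as before.
RIF1: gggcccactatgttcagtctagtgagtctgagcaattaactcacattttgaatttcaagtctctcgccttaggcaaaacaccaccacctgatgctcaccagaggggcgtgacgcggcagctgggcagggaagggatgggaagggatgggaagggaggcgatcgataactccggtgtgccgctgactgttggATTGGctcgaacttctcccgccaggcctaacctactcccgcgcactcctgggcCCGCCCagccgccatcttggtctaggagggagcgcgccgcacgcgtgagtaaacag
It holds 1 CCAAT box and 1 GC box, both on the reverse strand, and none of the other motifs searched for. Presence or absence of these letters says nothing of a factor's part in the difference.

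PRKDC, the catalytic subunit of the DNA-dependent protein kinase that Ku recruits, had the most reads of all 38 genes. They numbered 55048 in the control and 42689 with PPMX-T003, or 1176 and 989 CPM, a log2 ratio of -0.25 (interval -0.27 to -0.23) and a 0.841-fold level. After the GC and length fit PRKDC lay at -0.12 (interval -0.14 to -0.10). The Ku genes did not follow it to the same extent. XRCC5, with 44191 and 38716 reads, lay at -0.07 (interval -0.09 to -0.05), a call lost after the GC and length fit (0.00, interval -0.02 to 0.02), and XRCC6, with 30262 and 28313 reads, at 0.02 (interval -0.00 to 0.04). The summed reads of end joining genes, of which PRKDC holds a large part, went from 0.336% of the library to 0.306%. RIF1, XRCC5, TP53BP1 and LIG4 were lower as well.

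Among the genes of end processing and ligation, LIG4, the ligase of the pathway, had 1847 reads in the control and 1501 with PPMX-T003, or 39.5 and 34.8 CPM, a log2 ratio of -0.18 (interval -0.28 to -0.08). After the GC and length fit it lay at -0.04 (interval -0.14 to 0.06) and was not beyond counting error. Its partner XRCC4 (-0.05, interval -0.20 to 0.11) and the nuclease gene DCLRE1C, which encodes Artemis (-0.12, interval -0.24 to 0.01), were not beyond counting error. NHEJ1, which encodes a filament partner of XRCC4, was the exception of the pathway. It had 1330 reads in the control and 1439 with PPMX-T003, or 28.4 and 33.4 CPM, a log2 ratio of 0.23 (interval 0.12 to 0.34), the only end joining gene that was higher beyond counting error. In GENCODE release 29, 65.4% of its exon bases are shared on the same strand with a gene model that has no symbol in the table.

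LIG4 has 5 annotated starts, and the window of the outermost (chr13:108218300-108218599, minus strand, RefSeq, GRCh38.p14) is shown because ABHD13, which starts 11 bases away on the opposite strand, was lower as well.
LIG4: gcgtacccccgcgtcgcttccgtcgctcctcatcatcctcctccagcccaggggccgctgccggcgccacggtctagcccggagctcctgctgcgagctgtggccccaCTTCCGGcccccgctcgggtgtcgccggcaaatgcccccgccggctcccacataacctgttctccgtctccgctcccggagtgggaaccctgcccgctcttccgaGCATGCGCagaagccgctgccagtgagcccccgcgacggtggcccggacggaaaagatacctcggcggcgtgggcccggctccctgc
It holds 1 ETS motif, present in 10.3% of promoter windows, and 1 NRF1 motif, present in 3.05%, both on the reverse strand. The other motifs were not found in this window.

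Transcript features that had no part in choosing the genes went together with their log2 ratios. Over the 38 genes the log2 ratio had a Spearman correlation of 0.66 with transcript GC content and of -0.71 with transcript length, which are values across genes of the same pair of libraries and not across replicates. Over 11962 tested genes with a known transcript the same correlations were 0.40 and -0.30, and over the 8219 of them with at least 1000 reads 0.55 and -0.45. Of the 13 repair genes with a GC content of at least 50%, 8 were higher beyond counting error and 1 was lower, and of the 25 below 50%, 3 were higher and 10 lower. Over all tested genes, 2092 of 5614 were higher and 611 lower at a GC content of at least 50%, and 676 of 6348 were higher and 2479 lower below it, so the repair genes followed the direction seen across the table.

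**Figure D3:**
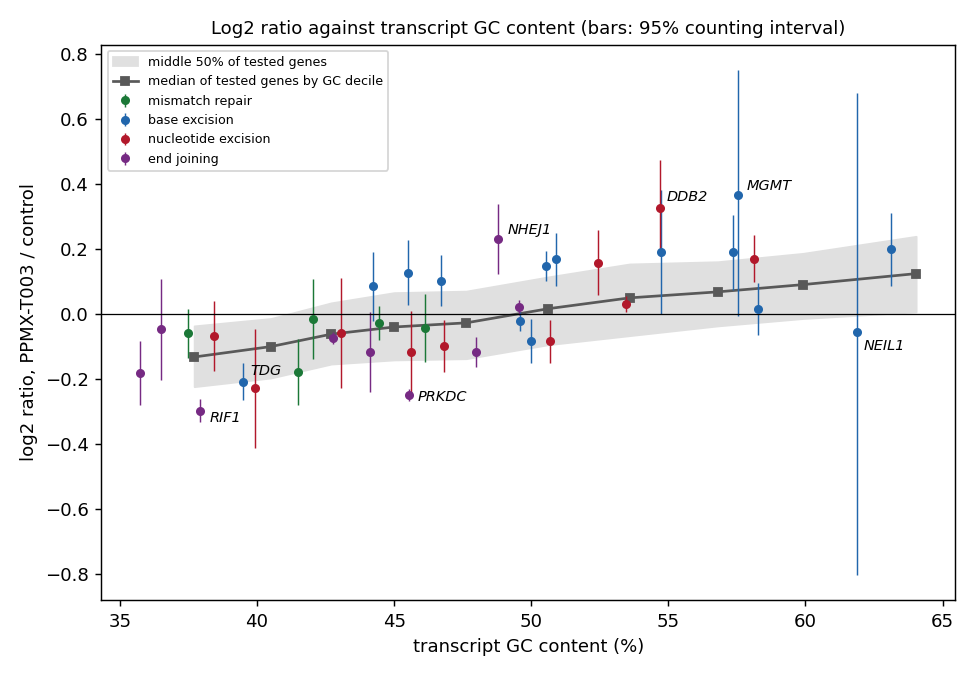
Log2 ratio, PPMX-T003 over control, against the GC content of the transcripts for the 38 repair genes, coloured by pathway, with 95% counting intervals. Squares and line give the median of all tested genes in each of 10 equal bins of GC content and the grey band their middle 50%. The points rise with GC content as the line does, and among those outside the band RIF1 and PRKDC lie below it and NHEJ1, DDB2 and MGMT above it.

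The pathways themselves differ in these features. The median GC content was 50.7% for base excision genes and 44.1% for end joining genes, and the median transcript length 1882.5 and 3428 bases. Nucleotide excision genes lay between them, at 48.8% and 3094.5 bases. Mismatch repair genes had the lowest GC content, 42.1%, and the longest transcripts, 4092 bases, but a median log2 ratio of -0.04, nearer 0 than that of end joining. A robust regression of the log2 ratio on GC content and log2 length over the 11962 genes was subtracted from each value. The median of the end joining genes then moved from -0.12 to -0.04, that of the mismatch repair genes from -0.04 to 0.04, that of the nucleotide excision genes from -0.06 to -0.02 and that of all 38 genes from -0.04 to 0.01, while that of the base excision genes was 0.10. Beyond counting error, 8 genes were then higher (UNG, APEX1, PARP2, APTX, XPC, DDB1, DDB2 and NHEJ1), beside 2238 of the 11962 fitted genes, and 5 were lower (TDG, ERCC3, PRKDC, TP53BP1 and RIF1), beside 2398. Of the 8219 fitted genes with at least 1000 reads, 1827 were higher and 1950 lower.

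All 8 of these higher genes and all 5 of these lower genes had the same call without the fit. The calls for OGG1, MPG and ERCC1 as higher, and for MLH3, LIG3, ERCC4, ERCC5, XRCC5 and LIG4 as lower, were lost with it. DDB2 kept a log2 ratio of 0.24 (interval 0.10 to 0.39) and NHEJ1 of 0.23 (interval 0.12 to 0.33). RIF1 was left at -0.13 (interval -0.17 to -0.10), PRKDC at -0.12 (interval -0.14 to -0.10), TDG at -0.11 (interval -0.17 to -0.05) and TP53BP1 at -0.05 (interval -0.10 to -0.00), and for these 4 genes the counted ratio was larger by a factor of more than 1.5. Whether the relation to GC content and length arose in the cells or in the libraries was not tested.

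Genes whose products share a complex or a step, or stand in for each other, allow a comparison that needs no scaling between libraries, since the ratio of the reads of a pair within each library can be set against that in the other. For 11 such pairs, chosen after the values were seen, the change of this ratio is given on the log2 scale with a 95% Woolf interval for counting error. The ratio of ERCC4 to ERCC1 went from 0.185 in the control to 0.140 with PPMX-T003, a log2 change of -0.40 (interval -0.59 to -0.20), and that of PRKDC to XRCC6 from 1.82 to 1.51, a change of -0.27 (interval -0.30 to -0.24). After the GC and length fit the change for PRKDC to XRCC6 was -0.13 (interval -0.16 to -0.10), which excludes 0, and that for ERCC4 to ERCC1 did not exclude 0.

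The ratio of XRCC5 to XRCC6, the Ku subunits, went from 1.46 to 1.37 (-0.09, interval -0.13 to -0.06), and that of RIF1 to TP53BP1 from 1.87 to 1.65 (-0.18, interval -0.24 to -0.12). Shifts in the other direction were found for DDB2 to DDB1 (0.30, interval 0.15 to 0.44) and PARP2 to PARP1 (0.15, interval 0.05 to 0.25). For LIG4 to XRCC4, LIG3 to XRCC1, ERCC6 to ERCC8, MSH3 to MSH6 and PMS1 to PMS2 the interval held 0. With the GC and length fit subtracted, the intervals that excluded 0 were those of DDB2 to DDB1, PARP2 to PARP1, RIF1 to TP53BP1 and PRKDC to XRCC6. The change was then -0.08 (interval -0.14 to -0.02) for RIF1 to TP53BP1 and -0.15 (interval -0.34 to 0.05) for ERCC4 to ERCC1.

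**Figure D4:**
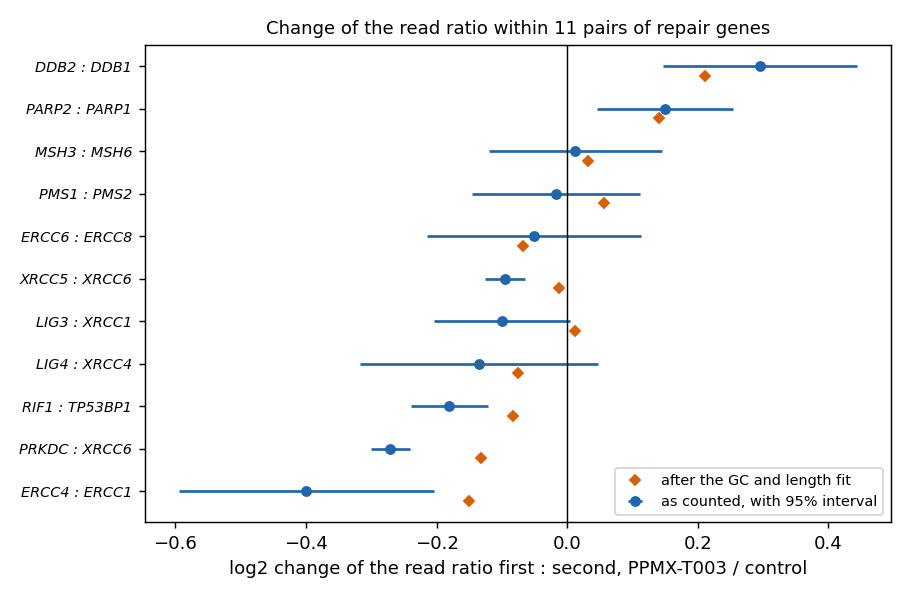
Log2 change, PPMX-T003 over control, of the read ratio within 11 pairs of repair genes (gene named first over gene named after it). Circles with bars are the values as counted with 95% Woolf intervals, and diamonds the values after the GC and length fit. The diamonds lie nearer 0 for all pairs but ERCC6 to ERCC8, MSH3 to MSH6 and PMS1 to PMS2.

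Several repair genes share their start region with another gene. Pairs of a repair gene and a gene that starts on the opposite strand within 1000 bases are reported for 12 of the 38 genes, and in 10 of these the neighbour had at least 20 reads. In 3 of these 10 reported pairs both genes were beyond counting error in the same direction, and in 0 of them in opposite directions. Over the 1344 pairs of such starts in the table with at least 20 reads for both genes, the shares were 16.3% and 6.62%. The genes of the 10 pairs were read far above that minimum, the least read being XRCC4 with 716 and 639 reads. Fewer calls are made among thinly read genes, so shares over the 1344 pairs are not matched for depth. LIG4 and ABHD13 were both lower, the latter with 2357 and 1828 reads and a log2 ratio of -0.25 (interval -0.34 to -0.16). After the GC and length fit neither was beyond counting error, ABHD13 being at -0.08 (interval -0.17 to 0.01), and the other 2 pairs were still both higher, beside 6.85% of the 1344 pairs in the same direction and 5.58% in opposite directions after the fit. APEX1 and OSGEP, which encodes an enzyme of transfer RNA modification, were both higher, OSGEP at 0.20 (interval 0.09 to 0.32) from 1194 and 1268 reads. DDB1 and TKFC, a sugar kinase gene, were both higher but by unlike amounts, TKFC at 0.45 (interval 0.32 to 0.58) from 914 and 1152 reads against 0.03 for DDB1, whose call was lost with median-of-ratios scaling. The exons of DDB1 and TKFC overlap by 521 bases on opposite strands, and DDB1 has far more reads. Since the use of strand in counting is not given, reads of these bases may not be told apart.

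The remaining pairs differed in whether a gene lay beyond counting error. PRKDC was lower, while MCM4, a subunit of the replicative helicase that starts 715 bases away, had 33093 and 30133 reads and a log2 ratio of -0.02 (interval -0.04 to 0.00). XPC was higher, while the splicing factor gene LSM3 had 3871 and 3512 reads and a ratio of -0.02 (interval -0.09 to 0.04). In these pairs a shared start region did not go with a shared ratio. The exons of XPC and LSM3 overlap by 318 bases on opposite strands, and those of PMS1 and ORMDL1 by 103. DESI1 beside XRCC6 (0.11, from 5075 and 5046 reads) and AIMP2 beside PMS2 (0.20, from 2180 and 2303 reads) were higher beyond counting error, and TMEM167A beside XRCC4 (-0.14, from 6963 and 5837 reads) was lower, while the repair gene of each pair was not beyond it. The call for TMEM167A was lost after the GC and length fit (0.005, interval -0.05 to 0.06). ORMDL1 beside PMS1 (-0.02, from 5101 and 4638 reads) and NDUFAF2 beside ERCC8 (-0.04, from 1842 and 1647 reads) had intervals that hold 0, as did both repair genes. The neighbours RPPH1 of PARP2 and PINLYP of XRCC1 had fewer than 20 reads. PARP2 and APEX1, both higher, lie 97.3 kb apart on chromosome 14, the closest of the repair genes to each other.

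Promoter windows were matched for 34 of the 38 genes, with 52 annotated starts. SMUG1, XRCC5, POLB and PRKDC have no window. Their median GC content was 65% and their median number of CpG dinucleotides 24.5, against 58.7% and 14 over all 35116 windows. The GC box was found in 76.9% of the windows of repair genes against 45.0% of all, the CCAAT box in 46.2% against 34.6%, the ETS motif in 26.9% against 10.3%, the NRF1 motif in 11.5% against 3.05% and the E-box in 11.5% against 7.26%. The E2F motif was found in 3.85% against 1.15% and the TATA box in 1.92% against 11.5%. The windows of the repair genes thus had more GC and held each of these motifs but the TATA box more often, and the shares were not tested. They count windows, which can overlap for a gene with several starts, such as LIG4 with 5. Of the 34 matched genes, 29 had the GC box, 20 the CCAAT box and 10 the ETS motif. The NRF1 motif and the E-box were found in 6 genes each, the E2F motif in 2 and the TATA box in 1. The full set of windows includes genes with few or no reads here, so it is not matched for expression.

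Other genes of the same pathways were read for comparison, a list of 74 that includes clamp loaders, replicative polymerases, subunits of TFIIH and the shieldin complex. Of the 73 tested, 19 were higher beyond counting error and 18 lower, with a median log2 ratio of 0.01, beside 21.8% and 23.9% of all tested genes. Among genes with at least 1000 reads the shares were 27.8% and 32.1%. The highest by the interval bound nearest to 0 were MUTYH, a glycosylase that removes adenine opposite oxidised guanine (1436 and 1704 reads, 0.36, interval 0.26 to 0.47), RPA3, a subunit of the single-strand binding protein (1976 and 2203 reads, 0.27, interval 0.19 to 0.36), and DYNLL1, a light chain that binds TP53BP1 (6678 and 7223 reads, 0.23, interval 0.18 to 0.28). The lowest were SHLD2, a shieldin subunit that acts after RIF1 (4217 and 3158 reads, -0.30, interval -0.37 to -0.23), the histone methyltransferase gene SETD2 (6822 and 5241 reads, -0.26, interval -0.32 to -0.21) and POLQ, the polymerase of an alternative end joining pathway (4300 and 3441 reads, -0.20, interval -0.27 to -0.14). After the GC and length fit these lay at -0.18 for SHLD2, -0.14 for SETD2 and -0.06 for POLQ, whose interval then held 0 (-0.13 to 0.00), and the 3 highest remained above 0 at 0.25 for MUTYH, 0.29 for RPA3 and 0.15 for DYNLL1. By pathway, 7 of 19 other base excision genes were higher and 1 lower, against 3 of 19 higher and 5 lower for end joining, 6 of 17 higher and 6 lower for mismatch repair and 3 of 20 higher and 6 lower for nucleotide excision, counts to be read beside the same shares of all tested genes. After the fit the higher and lower genes numbered 6 and 1 for base excision, 1 and 3 for end joining, 3 and 3 for mismatch repair and 5 and 7 for nucleotide excision. Of all 11962 fitted genes, 2238 were then higher and 2398 lower, and of the 8219 with at least 1000 reads 1827 and 1950.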

How the data were processed

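RNA of NK92 cells was measured in 2 libraries, 1 per condition, and the groups follow the treatment given in the labels. Per the submitters' processing notes and the methods, the authors trimmed reads with Trimmomatic 0.38, aligned them with HISAT2 2.2.0 to hg38, counted them with StringTie 2.1.3b and named edgeR 3.17, which was not used here. The deposited reads per gene are whole numbers not scaled between libraries. Commas that divide the digits of larger values were removed, and these columns carry a general unit for that reason. The FPKM and TPM that the authors deposited are rounded, with no decimals, and were handled as a score. Whether the counting used strand is not given in the sources used here. Of the 38 genes, 20 share exon bases with a gene on the opposite strand and 6 with a gene on the same strand, so reads in shared exons are uncertain.

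TMM scaling (trimmed mean of log ratios, with 30% of log ratios and 5% of levels trimmed, giving factors of 1.00 and 0.999) and log2 CPM, to which a prior count of 2 was added, were computed with numpy 2.4.6 and pandas 2.3.3 under Python 3.11.15. Intervals used scipy 1.17.1, the regression statsmodels 0.14.6 and the plots matplotlib 3.10.9. No count model was fitted and no p-value computed. The computation was tested on simulated data. GC content and length are medians over GENCODE release 29 transcripts that match those listed for a gene, and were known for all 38 genes and for 87.5% of tested genes. Coordinates refer to GRCh38, and promoter sequences come from RefSeq (GRCh38.p14).

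The 38 genes and the lists of other pathway genes and markers were chosen with earlier results of these data known. Reads are given for the 6 highest and 6 lowest of the 38 genes by the interval bound nearest to 0, the 3 most and 3 least abundant per length, the 3 highest and 3 lowest other pathway genes, and neighbours with at least 20 reads, and other reads where a result turns on them. The result of 1 neighbour is not reported here. As alternatives, the scaling was replaced by size factors (median-of-ratios), by the upper quartile or by library totals. Others were the fit on GC content and length, prior counts of 0.5 and 5, the TPM with a pseudocount of 1, a 99% interval, a limit of 1.5-fold, and minimums of 100 reads and 1 read. A minimum of 1000 reads, the TPM less its common shift and the summing of reads with overlapping or near-identical genes were added after the data were seen.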

Additional observations from a re-analysis of the deposited data

Results flagged for a closer look

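ERCC8 stood out because measures outside the main comparison, the rounded levels per length, differed from its reads. Its TPM was 14 with PPMX-T003 against 8 in the control. BIVM-ERCC5, a readthrough gene outside the 38, had 48 reads with PPMX-T003 and 0 in the control.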

How the results depend on the processing

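No paired analysis was possible because only 1 library stands for either condition, and none could be left out. Every single ratio kept its value within counting error, and no median changed sign, under library size and upper quartile scaling and both other prior counts, and every count stayed within 1.5 times under these scalings. With the other prior counts only the medians, the single ratios and the counts past 0.32 were computed. The number of lower repair genes was 5 with the GC and length fit removed and 7 with a 99% interval, against 11. The calls lost with the 99% interval were those of PARP2, APTX and DDB1 as higher and of LIG3, ERCC3, ERCC4 and ERCC5 as lower. The number of genes past 0.32 upwards was 1 with median-of-ratios scaling, 0 after the GC and length fit, 0 at 1.5-fold and 1 with at least 1000 reads, against 2. With the rounded TPM, 2 genes, RIF1 and ERCC4, reached 0.32 downwards, against 0, and the 2 genes past it upwards were MGMT and ERCC8 in place of MGMT and DDB2. The median of the end joining genes was -0.039 after the GC and length fit, against -0.12. A stricter interval and a higher fold or minimum leave fewer genes by construction, and for the others the cause was not tested.

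Among ratios beyond counting error, the sign turned for DDB1 with the TPM (-0.025), and after the GC and length fit for XRCC5 (0.00043) and the neighbour TMEM167A (0.0052). Among ratios within counting error it turned for 3 with the TPM and for 9 with that fit. The TPM ratios carry a shift common to the table. With it removed, an alternative chosen after the data were seen, the sign turned for 0 ratios beyond counting error and 4 within it, 3 ratios moved beyond their counting interval, those of ERCC6, ERCC8 and RIF1, and 1 gene, RIF1, reached 0.32 downwards. The medians of all 38 genes (0.02) and of the nucleotide excision genes (0.04) were then above 0. Not counting those turns beyond counting error, 12 of the 48 single ratios moved beyond their counting interval with the GC and length fit and 14 with the TPM as deposited, some of them among those within counting error that changed sign. The median of all 38 genes and that of the mismatch repair genes changed sign with the fit. With 1 library per condition, the spread between dishes is unknown, and the intervals are narrower than the error of a comparison of conditions. Depth limits NEIL1, MGMT and SMUG1, whose intervals are wide, far more than PRKDC or the Ku genes.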
